A study of Mus musculus with 6 samples.

Results

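FOXM1, the MYB family and the LIN subunits of the MuvB complex were examined in whole mouse retinae that lack Rb1 and p107 (DKO) or Rb1, p107 and Hells (TKO). The 8 genes Foxm1, Mybl1, Mybl2, Myb, Lin9, Lin37, Lin52 and Lin54 were taken by symbol from the 24062 genes of the RNA-seq table. All 8 passed the filter on low counts (a sum of at least 10 over the 6 libraries) and were among the 16904 genes tested. The study examined what the chromatin remodeler HELLS does in the developing retina and in retinoblastoma. Both groups were C57BL/6 mice (C57BL/6N in the study's methods) at postnatal day 21 (P21) that carried the Chx10-Cre driver, floxed Rb1 alleles (lox/lox) and germline p107 deletion (-/-), and only the TKO group also carried floxed Hells alleles (lox/lox). Chx10-Cre acts in retinal progenitors and is mosaic, so each retina also held cells without recombination, and no retina with intact Rb1 and p107 was part of this comparison. There were 3 libraries per group, and counts on genes summed to 12083082, 12888233 and 10343907 in TKO replicates 1, 2 and 3 and to 12635061, 13455972 and 14203098 in DKO replicates 1, 2 and 3.

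MuvB is a core of LIN9, LIN37, LIN52, LIN54 and the histone chaperone RBBP4 that changes partners over the cell cycle. In resting cells it joins E2F4 or E2F5, a DP protein and p130 or p107 to form DREAM, which represses cell cycle genes. In dividing cells the p130 or p107 arm leaves, B-MYB (Mybl2) or A-MYB (Mybl1) binds the LIN9 and LIN52 subunits, and FOXM1 then joins to switch on the genes of G2 and mitosis. LIN54 is the subunit that contacts the cell cycle genes homology region (CHR) in promoters. The founding family member c-MYB (Myb) is known from progenitor cells and is not a stable MuvB partner. Foxm1 and Mybl2 are themselves genes that the RB and DREAM pathway holds down.

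RefSeq promoter windows (GRCm38.p6, 250 bases before to 50 bases after a gene's start) were found for 5 of the 8 genes, Mybl2, Myb, Lin37, Lin52 and Lin54. Shown are Mybl2 and Myb, whose counts were lower in TKO retinae, beside Lin52 and Lin37, whose counts did not pass the test. Capitals mark matches, on either strand, to CHR letters (TTTGAA or TTCGAA), E2F letters (TTTGGCGC, TTTCGCGC, TTTCCCGC or TTTGCCGC), the E2F-type core GGCGGGA and the CCAAT box. The GGCGGGA letters were added after the sequences had been read. In Lin52 a TTTCCCGC match and a GGCGGGA match overlap.
Mybl2 (chr2:163054385-163054684, + strand): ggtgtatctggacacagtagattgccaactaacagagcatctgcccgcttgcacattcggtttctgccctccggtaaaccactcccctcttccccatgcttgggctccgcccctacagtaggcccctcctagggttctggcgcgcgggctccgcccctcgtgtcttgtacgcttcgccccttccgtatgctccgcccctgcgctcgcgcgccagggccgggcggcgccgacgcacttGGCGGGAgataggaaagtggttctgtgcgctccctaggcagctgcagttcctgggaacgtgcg
Myb (chr10:21160935-21161234, - strand): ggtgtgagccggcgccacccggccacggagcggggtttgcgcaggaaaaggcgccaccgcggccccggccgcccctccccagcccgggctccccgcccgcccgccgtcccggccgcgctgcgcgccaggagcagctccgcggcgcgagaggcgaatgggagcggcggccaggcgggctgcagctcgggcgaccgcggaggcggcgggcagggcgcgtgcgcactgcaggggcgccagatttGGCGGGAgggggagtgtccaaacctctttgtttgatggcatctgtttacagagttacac
Lin52 (chr12:84451258-84451557, + strand): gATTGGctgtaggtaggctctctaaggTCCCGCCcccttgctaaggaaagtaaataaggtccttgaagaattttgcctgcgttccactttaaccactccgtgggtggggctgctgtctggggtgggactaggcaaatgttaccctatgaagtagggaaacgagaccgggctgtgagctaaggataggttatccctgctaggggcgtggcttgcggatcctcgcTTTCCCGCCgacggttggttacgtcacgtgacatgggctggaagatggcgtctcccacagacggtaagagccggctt
Lin37 (chr7:30559597-30559896, - strand): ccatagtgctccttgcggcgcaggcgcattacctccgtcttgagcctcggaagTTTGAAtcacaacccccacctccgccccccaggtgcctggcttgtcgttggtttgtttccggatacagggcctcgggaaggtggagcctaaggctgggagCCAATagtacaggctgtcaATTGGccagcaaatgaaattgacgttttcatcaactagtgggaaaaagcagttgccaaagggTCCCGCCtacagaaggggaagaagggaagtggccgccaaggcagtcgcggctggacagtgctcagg

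GGCGGGA lay close to the RefSeq start in all 4 printed windows. It ran from position -13 to -7 in Mybl2, -9 to -3 in Myb, -25 to -19 in Lin52 and -16 to -10 in Lin37. A second match in Lin52 ran from -223 to -217. Negative positions count bases before the RefSeq start. GENCODE, the annotation of the loci given below, places the starts of Mybl2, Lin52 and Lin37 elsewhere (163054687, 84451422 and 30559838). By it the matches near the RefSeq start of Lin52 and Lin37 lie inside the gene. One window of Lin54 held GGCGGGA as well, from -89 to -83. These letters were therefore in the windows of the genes that were lower and of those that were not. They were in 11.3% of all 32851 promoter windows and in 18.5% of the windows of genes tested. The 8-base E2F letters were found in Lin52 alone of these 5 genes, from -27 to -20, against 2.26% of all windows. CHR letters were found in Lin37, from -197 to -192, and in Lin54, and in neither Mybl2 nor Myb, against 19.2% of all windows. The CCAAT box was in the windows of Lin37, Lin52 and Lin54, against 37.4% of all windows. The forkhead letters TAAACA were matched in Myb only, against 13.4% of all windows, and the MYB letters CAACNG or TAACNG in Mybl2, Lin37 and Lin52, against 49.7%. In the windows of genes tested, the shares were 3.46% for the 8-base E2F letters, 13.9% for CHR and 37.0% for CCAAT. They were 9.08% for the forkhead and 45.7% for the MYB letters. Such matches describe letters only.

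The targeted genes were read first. Hells, the remodeler deleted in TKO retinae, had normalized counts (counts scaled to a common library size) of 60.8, 68.4 and 83.4 in the TKO retinae and of 678, 523 and 395 in the DKO retinae. Here and below, single retinae are given in the order of replicates 1, 2 and 3. It fell by 2.91 on the log2 scale (SE 0.225; adjusted p = 0.00359 by edgeR's quasi-likelihood test with Benjamini-Hochberg adjustment, n = 3 per group), and the groups did not overlap. By the paper, the floxed allele loses part of Hells, and the gene is itself under RB/E2F control. Counts covered the whole gene, and how far this fall reflects the deletion was not tested. Rb1 was floxed in both groups and counted over the whole gene, and its normalized counts were 748 ± 66.0 in the TKO and 591 ± 23.5 in the DKO group (mean ± SD, n = 3), a log2 fold change of 0.34 (SE 0.0912; adjusted p = 0.0388, edgeR). Rbl1, which encodes p107, was low in both, at 20.3 ± 7.02 and 18.6 ± 4.87 normalized counts (adjusted p = 0.839, edgeR).

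Of the 8 regulators, 5 were lower in TKO than in DKO retinae at an adjusted p of at most 0.05 and 0 were higher. Over all genes tested, 9.20% were lower and 7.35% higher by the same rule. The 5 were Foxm1 and all 3 MYB family genes, which were lower by 3.35-fold to 7.61-fold, and Lin9, which was lower by 1.72-fold. The other 3 LIN subunits, Lin37, Lin52 and Lin54, did not pass. With the study's criteria, which also ask for a change by 1 or more on the log2 scale and a mean of 10 or more normalized counts, Foxm1, Mybl1, Mybl2 and Myb were called, against 4.38% of all genes lower and 1.97% higher. In the same 5 genes every TKO retina was below every DKO retina, which held for 20.6% of all genes. DESeq2 also called 5 of the 8 lower and 0 higher, and by either tool 0 of the 8 were higher at an unadjusted p under 0.05. The count of 5 fell to 1 without TKO replicate 2 and to 3 without DKO replicate 1 or without DKO replicate 2. Over all genes tested, the count lower fell from 1556 to 404, 499 and 433 in these 3 refits. In bulk retina, fewer dividing cells and less RNA of these genes per cell cannot be told apart.

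**Figure D1:**
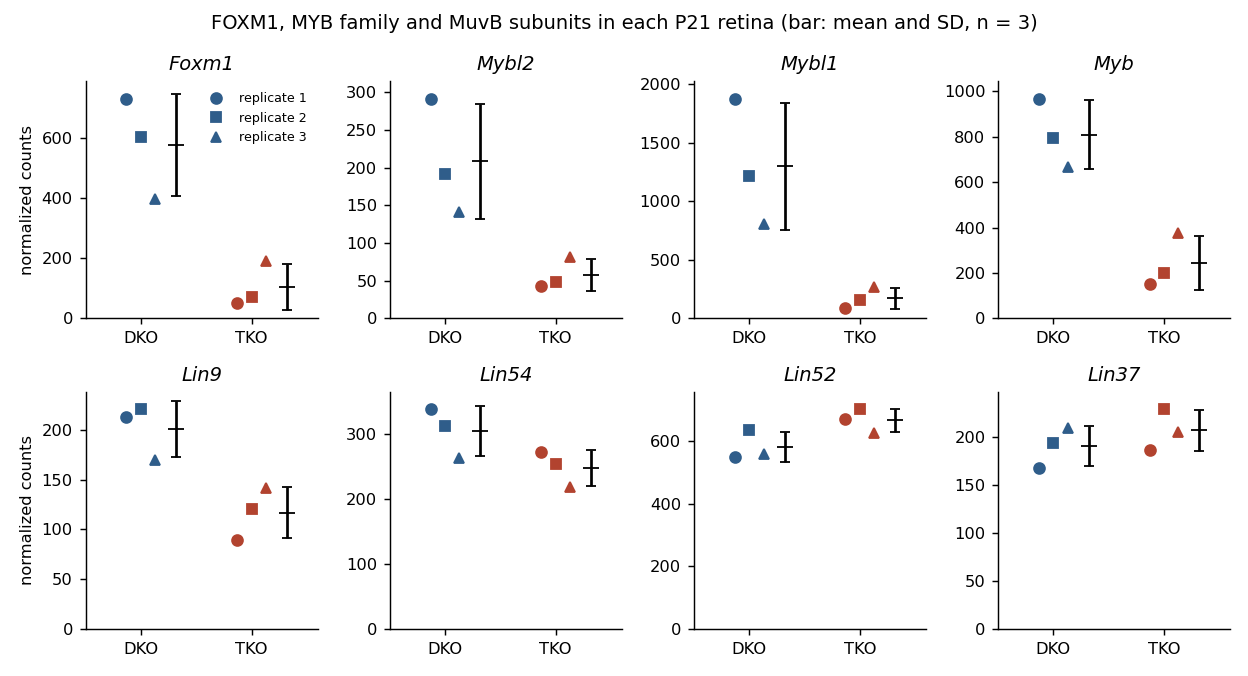
Normalized counts (y axis, linear from 0, a scale for each gene) of the 8 genes in each P21 retina, DKO in blue and TKO in red, with replicates 1, 2 and 3 as circle, square and triangle and the black bar giving mean and SD (n = 3). The groups do not overlap for Foxm1, Mybl2, Mybl1, Myb and Lin9, and overlap for Lin54, Lin52 and Lin37.

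Foxm1, the forkhead activator of mitotic genes (chr6:128362967-128376146, + strand), stood at 50.5, 69.5 and 191 normalized counts in the TKO retinae, against 729, 602 and 395 in the DKO retinae. Every TKO retina was below every DKO retina, and the lowest DKO value was 2.06 times the highest TKO value. The level was 5.59-fold higher in DKO retinae (95% interval 2.75 to 11.3), a log2 fold change of -2.48 in TKO (SE 0.446; adjusted p = 0.0110, edgeR's quasi-likelihood test). TKO replicate 3 held 3.79 times the count of TKO replicate 1, the widest spread within the TKO group among the 8 genes. The Foxm1 call was lost on leaving out TKO replicate 2 (adjusted p = 0.0544, edgeR), DKO replicate 1 (0.0502) or DKO replicate 2 (0.05005), with log2 fold changes from -3.25 to -2.16 over the 6 retinae left out. Of its annotated exonic bases, 144 are shared with Tex52 and 97 with Gm44596 on the same strand.

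The MYB family encodes DNA-binding factors with a common MYB domain. Mybl1 (A-MYB; chr1:9667415-9700209, - strand) changed most of the 8 genes. Its normalized counts were 89.4, 156 and 268 with Hells deleted and 1876, 1212 and 801 in the DKO retinae. The lowest DKO retina was 2.99 times the highest TKO retina, the widest gap between groups among the 8. The group means were 171 ± 90.0 and 1296 ± 542 (SD, n = 3), 7.61-fold higher in DKO (95% interval 3.96 to 14.6), with a log2 fold change of -2.93 (SE 0.411; adjusted p = 0.00700, edgeR). The call held with each retina left out, with log2 fold changes from -3.39 to -2.56.

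Mybl2 (B-MYB; chr2:163054687-163084688, + strand), the MYB protein that partners MuvB in most dividing cells, stood at 42.4, 48.4 and 81.0 normalized counts in the TKO retinae. In the DKO retinae it stood at 292, 192 and 142. All TKO values were below all DKO values, with the lowest DKO value 1.75 times the highest TKO value. The log2 fold change was -1.87 (SE 0.328; adjusted p = 0.0106, edgeR), a level 3.64-fold higher in DKO retinae (95% interval 2.16 to 6.14). The interval overlaps those of Foxm1 and Mybl1, and the sizes of the changes were not tested against each other here.

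Myb (c-MYB; chr10:21124935-21160984, - strand), best known from blood progenitors, stood at 153, 198 and 377 normalized counts in the TKO retinae, against 968, 794 and 667 in the DKO retinae. The groups again did not overlap, and TKO replicate 3 lay nearest to the DKO retinae. The log2 fold change was -1.75 (SE 0.301; adjusted p = 0.0101, edgeR), with DKO 3.35-fold higher (95% interval 2.08 to 5.40). Without TKO replicate 2, neither Mybl2 (adjusted p = 0.0532, edgeR) nor Myb (0.0527) passed. An antisense gene, Gm26577, shares 559 of the exonic bases of Myb (6.26%), and the strand setting of the counting is not given in the sources used here. Ptprc, a gene of all white blood cells, was at a mean of 24.5 normalized counts in the TKO and 69.8 in the DKO group (log2 fold change -1.51, adjusted p = 0.00821, edgeR), and whether blood cells held part of the Myb counts was not tested.

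Of the 4 LIN subunits of MuvB, 1 was lower and 3 did not pass. Lin9 (chr1:180641150-180690694, + strand), which encodes the scaffold subunit, stood at 89.4, 120 and 141 normalized counts in the TKO retinae, against 213, 221 and 169 in the DKO retinae. The groups stood apart by a small gap, the lowest DKO retina being 1.20 times the highest TKO retina. Lin9 was 1.72-fold higher in DKO retinae (95% interval 1.26 to 2.35), with a log2 fold change of -0.78 (SE 0.196; adjusted p = 0.0311, edgeR). That call was lost without TKO replicate 1, TKO replicate 2, DKO replicate 1 or DKO replicate 2, where the adjusted p lay between 0.0814 and 0.120 (edgeR).

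Lin54 (chr5:100441918-100500639, - strand), the DNA-binding subunit, stood at 273, 255 and 218 normalized counts in the TKO retinae, against 339, 313 and 263 in the DKO retinae. The groups overlapped through DKO replicate 3 and TKO replicate 1. The log2 fold change was -0.29 (95% interval -0.61 to 0.024; adjusted p = 0.179, edgeR).

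Lin52 (chr12:84451422-84546145, + strand), whose phosphorylation by DYRK1A helps assemble DREAM, stood at 670, 702 and 627 normalized counts in the TKO retinae, against 550, 636 and 559 in the DKO retinae. Its groups overlapped by the smallest of margins, DKO replicate 2 lying just above TKO replicate 3. The log2 fold change was 0.20 (95% interval -0.016 to 0.41; adjusted p = 0.179, edgeR). Lin37 (chr7:30555441-30559838, - strand), a subunit needed for repression by DREAM, stood at 186, 228 and 205 normalized counts in the TKO retinae, against 168, 193 and 209 in the DKO retinae. Its log2 fold change was 0.12 (95% interval -0.21 to 0.44; adjusted p = 0.597, edgeR) and -0.036 with total counts as the only scaling. The intervals of Lin37 and Lin52 end well short of the changes measured for FOXM1 and the MYB family. Of Lin37, 3 exonic bases are shared with Hspb6 on the opposite strand.

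The ratio to Lin9 within each library, which does not depend on scaling, was used to set each regulator against a subunit of the complex. Foxm1 counts were 0.567, 0.581 and 1.36 times those of Lin9 in the TKO retinae and 3.42, 2.73 and 2.33 times in the DKO retinae. The ratios did not overlap, and the difference of the group means was -1.87 on the log2 scale. For Mybl1 the ratio to Lin9 was 1, 1.30 and 1.89 in the TKO and 8.80, 5.48 and 4.72 in the DKO retinae, a difference of -2.18. Mybl2 (-1.05) and Myb (-1.04) also differed from Lin9 without overlap of the groups. Lin9 was itself lower in TKO retinae, and with Lin52 in place of Lin9 the differences were -2.05 for Mybl2, -2.03 for Myb, -2.86 for Foxm1 and -3.17 for Mybl1. The exact permutation test, two-sided, gave p = 0.1 for each of the 4 ratios (adjusted p = 0.1), the smallest that 3 against 3 retinae allow, so none could pass 0.05.

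**Figure D2:**
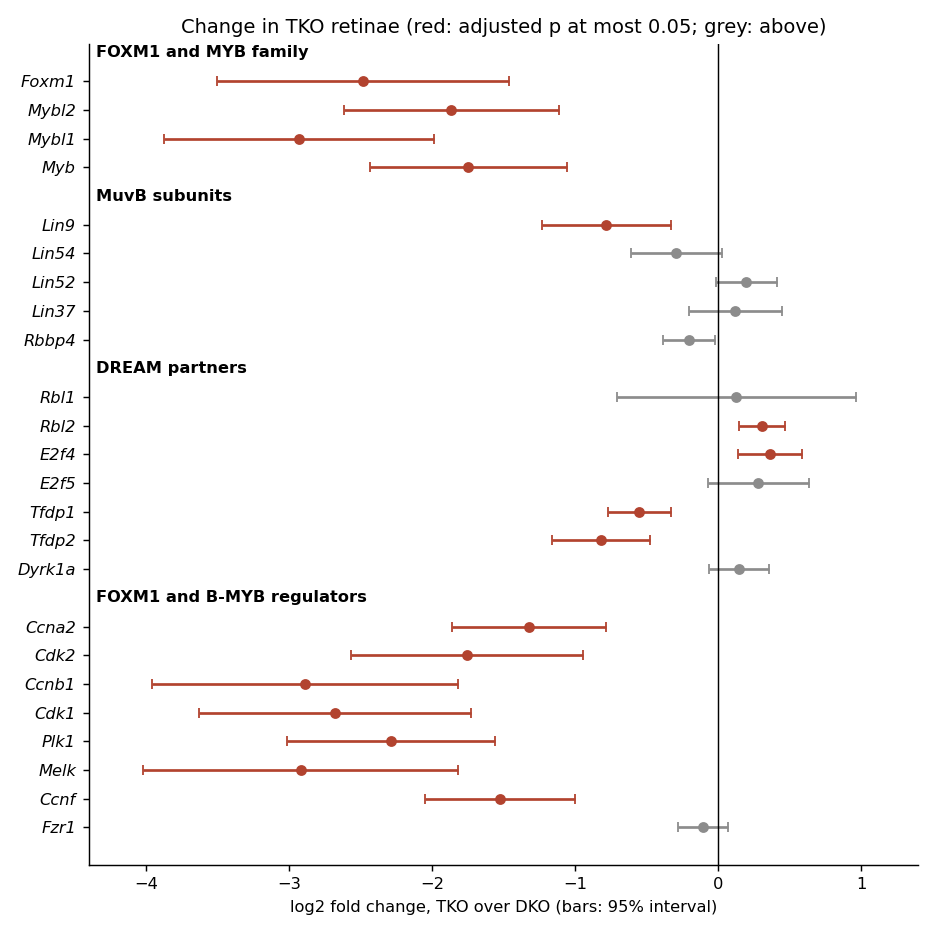
Log2 fold change of TKO over DKO (x axis; point, with the 95% interval as the bar) for FOXM1, the MYB family, MuvB subunits, DREAM partners and regulators of FOXM1 and B-MYB, red where the adjusted p is at most 0.05 and grey where it is above. Foxm1 and the MYB genes lie between -2.93 and -1.75. Lin9 lies at -0.78, and Lin54, Lin52, Lin37 and Rbbp4 lie between -0.29 and 0.20.

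Read per length, levels of different genes can be set side by side. In DKO retinae the order of normalized counts per kb of annotated exon was Rbbp4 (377), Mybl1 (240), Lin52 (187), Lin37 (137), Foxm1 (100), Myb (90.7), Lin54 (52.4), Mybl2 (45.0) and Lin9 (27.7). Mybl1 and Lin52, Lin37 and Foxm1, Foxm1 and Myb, and Lin54 and Mybl2 overlapped between retinae, and the other neighbours did not. In TKO retinae the order was Rbbp4 (327), Lin52 (214), Lin37 (149), Lin54 (42.7), Mybl1 (31.6), Myb (27.1), Foxm1 (18.0), Lin9 (16.1) and Mybl2 (12.4). There the first 3 each stood apart from the next gene, and from Lin54 down all neighbours overlapped. Mybl1 stood above Lin52, Lin37, Lin54 and Lin9 in the order of DKO retinae and below Lin52, Lin37 and Lin54 in that of TKO retinae, but overlapped with Lin52 and Lin37 in the former and with Lin54 in the latter. Rbbp4, the histone chaperone subunit, also serves other chromatin complexes.

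Within the MYB family the makeup differed as well. Mybl1 gave 67.0%, 63.3% and 58.5% of the family's normalized counts per kb in the DKO retinae and 38.7%, 46.9% and 45.4% in the TKO retinae. The Myb share was 25.1% ± 4.28 with DKO and 38.2% ± 1.96 with TKO, and that of Mybl2 was 11.96% ± 0.250 and 18.1% ± 2.87 (SD, n = 3). The Mybl1 share of every TKO retina was below that of every DKO retina. The log2 ratio of Mybl1 to Myb, a comparison chosen after the values had been seen, differed by -1.14 between the groups (exact permutation test, two-sided, p = 0.1, the smallest possible with 3 retinae per group).

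**Figure D3:**
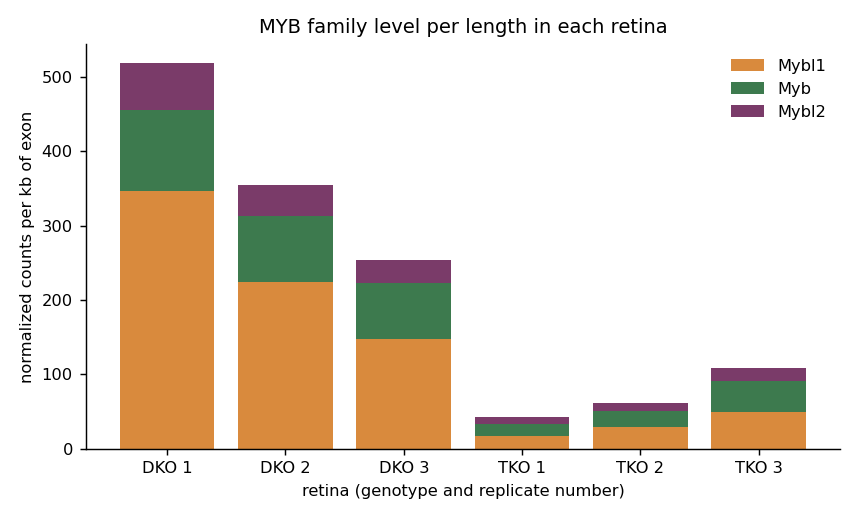
Normalized counts per kb of exon (y axis, from 0) of Mybl1, Myb and Mybl2 stacked for each P21 retina (x axis). Mybl1 makes up between 58.5% and 67.0% of the stack in DKO retinae and between 38.7% and 46.9% in TKO retinae.

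Genes linked to the assembly of DREAM were mixed. The list of 8, called DREAM partners here, held E2F, DP and pocket protein genes, the MuvB subunit gene Rbbp4 and the kinase gene Dyrk1a, and its Rbl1 (p107) was deleted in both groups. Of these 8, 2 were lower, 2 were higher and 4 did not pass, beside 9.20% lower and 7.35% higher over all genes tested, with a median log2 fold change of 0.14, beside -0.011 over all genes tested, and 0 met the study's criteria. Tfdp1 and Tfdp2, the DP partners of E2F proteins, had log2 fold changes of -0.55 (SE 0.0958; adjusted p = 0.0103, edgeR) and -0.82 (SE 0.150; adjusted p = 0.0116). Tfdp2 stood at 365, 392 and 432 normalized counts in the TKO retinae, against 830, 712 and 555 in the DKO retinae, without overlap. Rbl2, which encodes the pocket protein p130, rose by 0.31 (SE 0.0691; adjusted p = 0.0218, edgeR), from 981 ± 30.3 to 1213 ± 11.1 normalized counts (SD, n = 3). E2f4, the repressor E2F of DREAM, rose by 0.36 (SE 0.0974; adjusted p = 0.0389, edgeR), from 485 ± 36.4 to 624 ± 44.6 normalized counts. With total counts as the only scaling, under which the median over all genes was -0.17, Rbl2 was at 0.15 and E2f4 at 0.20 and neither passed. Both were also lost without TKO replicate 1, TKO replicate 2, DKO replicate 1 or DKO replicate 2, and Tfdp1 and Tfdp2 without TKO replicate 2 or DKO replicate 2. The log2 fold changes of the genes that did not pass were -0.20 for Rbbp4 (adjusted p = 0.114, edgeR), 0.13 for Rbl1, 0.28 for E2f5 and 0.15 for Dyrk1a, the kinase of LIN52.

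Genes that switch FOXM1 and B-MYB on or off were lower in 7 of 8 cases, beside 9.20% of all genes. Cyclin A (Ccna2) and Cdk2 activate both factors by phosphorylation, and had log2 fold changes of -1.32 and -1.75. Ccnb1 and Cdk1, the mitotic cyclin and kinase, were at -2.89 and -2.68, and the polo kinase gene Plk1 was at -2.29. Melk, a mitotic kinase gene that is also a FOXM1 target, fell by 2.92, from 299, 264 and 144 normalized counts in the DKO retinae to 11.5, 26.3 and 56.5 in the TKO retinae. Ccnf, whose protein binds B-MYB, fell by 1.52. The adjusted p of these 7 genes lay between 0.00691 and 0.0151 (edgeR). The 8th, Fzr1, encodes the anaphase-promoting complex activator CDH1, which directs FOXM1 destruction, and was at a mean of 838 normalized counts in the TKO and 901 in the DKO group (log2 fold change -0.10, adjusted p = 0.378, edgeR). Without TKO replicate 2 the count of 7 became 5, while that over all genes tested went from 1556 to 404.

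The genes that FOXM1, B-MYB and MuvB control in G2 and mitosis were lower almost throughout. Of 48 G2/M target genes tested, 45 were lower (beside 9.20% of all genes), 0 were higher and 3 did not pass, and 43 met the study's criteria. The median log2 fold change was -2.46, and in 46 genes every TKO retina was below every DKO retina, beside 20.6% of all genes. The most abundant were Top2a, the mitotic topoisomerase (-3.21; SE 0.496; adjusted p = 0.00780, edgeR), Mki67, the proliferation antigen (-2.52; adjusted p = 0.0152), Racgap1 of the cytokinesis machinery (-2.01; adjusted p = 0.00953) and Ccna2, while the spindle gene Spag5 did not pass (-0.32; adjusted p = 0.326). The other 2 that did not pass, named after their values were seen, were Bub1b at -0.55 and Pttg1 at 0.24. Over 15 alternative settings each, Mki67 no longer passed in 5, Racgap1 and Ccna2 in 2, and Top2a in 1. By edgeR and by DESeq2, 0 genes of the list were higher at an unadjusted p under 0.05. The count of 45 became 23 without TKO replicate 2, where the count over all genes tested went from 1556 to 404. CHR letters were in 73.9% and CCAAT in 78.3% of the 46 promoter windows found for 42 of these genes, against 13.9% and 37.0% of the windows of all genes tested. GGCGGGA was at 32.6% against 18.5%, and forkhead letters were at 19.6% against 9.08%. MYB letters were at 54.3% against 45.7%, and E2F letters at 2.17% against 3.46%.

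DREAM and E2F genes of the G1/S transition, which act before FOXM1 in the cycle, were set beside them. Of 29, 28 were lower (again beside 9.20% of all genes), 0 were higher and 1 did not pass, with a median log2 fold change of -1.33, and 26 met the study's criteria. Pcna, the sliding clamp of DNA replication, was at -1.27 (adjusted p = 0.00821, edgeR). The ribonucleotide reductase gene Rrm1 was at -1.30 (adjusted p = 0.00603), and the helicase subunits Mcm6 and Mcm7 were at -2.12 and -1.33. In all 29 genes every TKO retina was below every DKO retina, beside 20.6% of all genes. The count of 28 became 10 without TKO replicate 2, and 14 or 12 on leaving out DKO replicate 1 or 2. Over all genes tested, 1556 lower became 404, 499 and 433 in the same order. E2F letters were in 36.0%, CHR letters in 16.0% and CCAAT in 72.0% of the 25 promoter windows found for 22 of these genes, against 3.46%, 13.9% and 37.0% of the windows of all genes tested. GGCGGGA was at 36.0% against 18.5%, forkhead letters at 8.0% against 9.08% and MYB letters at 52.0% against 45.7%. Ccna2, Ccnb1, Cdk1 and Plk1 belong to both the regulator and the G2/M lists.

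The retinae of a group differed among themselves in the same direction for most of these genes. TKO replicate 3 was the highest TKO retina and DKO replicate 3 the lowest DKO retina for Foxm1, Mybl1, Mybl2, Myb and Lin9, 5 of the 8 genes. The same held for 44 of 48 G2/M genes and 28 of 29 G1/S genes, against 3045 of all genes tested (18.0%). It also held for all 5 amacrine, all 3 horizontal cell and 5 of 7 microglia markers, so it was not particular to cell cycle genes. The mean G2/M level, centred over the 6 retinae on the log2 scale, was -1.81, -1.23 and -0.41 in the TKO retinae and 1.54, 1.30 and 0.61 in the DKO retinae. The centred level of Foxm1 was -2.11, -1.66 and -0.21 in the TKO and 1.71, 1.44 and 0.83 in the DKO retinae. Lin54, Lin52 and Lin37 stayed between -0.33 and 0.30 in all 6 retinae. Replicate 3 of each genotype was thus the nearest to the other genotype in FOXM1 and MYB levels, and without TKO replicate 3 the log2 fold change of Foxm1 was -3.25.

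**Figure D4:**
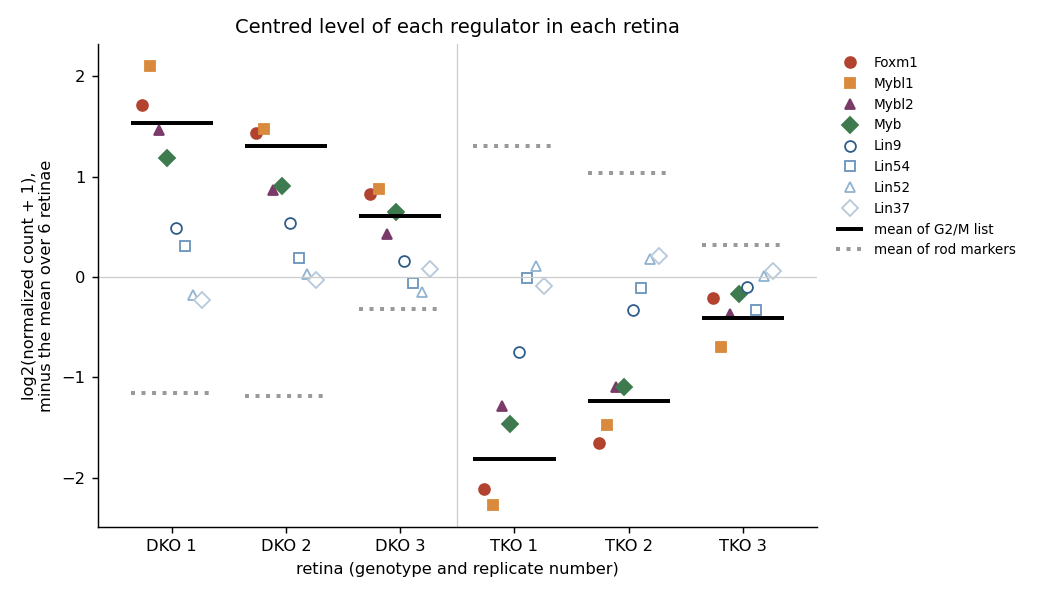
Level of each of the 8 genes in each P21 retina (x axis) as log2(normalized count + 1) minus its mean over the 6 retinae (y axis), filled for Foxm1 and the MYB family and open for LIN genes. Bars give the mean of the 48 G2/M genes (solid black) and of 6 rod markers (dotted grey), with G2/M at 0.61 in DKO replicate 3 and -0.41 in TKO replicate 3.

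For each regulator the genes with the most similar profile were found among 14968 genes with a mean of at least 10 normalized counts, by the root mean square distance of centred log2 levels over the 6 retinae. For Foxm1 they were Anln (distance 0.083), Nusap1 (0.089) and Bub1 (0.119). For Mybl1 they included Cenpf (0.104) and Birc5 (0.141). Mybl2 had the closest match of these 4 in the kinesin gene Kif15 (0.031), followed by the transcription factor genes Pou3f2 (0.072) and Nfib (0.083). Myb was nearest to Nkain4 (0.061), Espl1 (0.097) and Mcm5 (0.108). Lin9 was nearest to Gjc1 (0.047), Suclg2 (0.060) and Slc25a30 (0.062). For Lin37 they were Rtn2, Atcayos and Ino80e, for Lin52 Zfp12, Nfs1 and Fastkd1, and for Lin54 Mtmr12, Map4k1 and Tcte1, at distances of 0.018 to 0.057. These likenesses describe 6 retinae, which also differ in genotype.

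Markers of the retina were abundant in all 6 libraries, as labelled, and some moved with these genes. The marker counts stand beside 9.20% of all genes lower and 7.35% higher. All 6 rod markers were higher in TKO retinae (median log2 fold change 1.74). The summed normalized counts of the rod list were 642592, 550348 and 315881 in the TKO retinae and 112110, 108213 and 207576 in the DKO retinae. Rod markers were lowest of the TKO retinae in replicate 3 and highest of the DKO retinae in replicate 3, the reverse of Foxm1 and the MYB family. Of 6 cone markers 2 were higher (Opn1sw, the most abundant, and Arr3). Of 6 bipolar markers 1 was higher (Cabp5). None of the 5 amacrine (Gad1 the most abundant), 4 ganglion (Nefl) or 3 horizontal cell markers (Calb1) passed in either direction. Of 5 Muller glia markers, Glul (the most abundant) and Rlbp1 were higher and Sox9 was lower.

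Of 7 microglia markers, 4 were lower (Csf1r, the most abundant, C1qa, Cx3cr1 and Aif1), beside 9.20% of all genes, with a median of -1.08 and summed normalized counts of 908, 1075 and 1547 in the TKO and 2498, 2890 and 1915 in the DKO retinae. Of the other tissues a dissected retina can carry, 3 of 6 lens markers were higher in TKO, beside 7.35% of all genes, with sums of 548, 2954 and 447 against 81.9, 70.0 and 82.0, and TKO replicate 2 held the most. Cryaa was the most abundant lens gene. Lim2 was at 0, 49.5 and 2.45 normalized counts in the TKO retinae and at 0 in the DKO retinae, and did not pass. Of 4 pigment epithelium markers 1 was higher (Rpe65; Ttr the most abundant), and of 4 endothelial markers 1 (Pecam1; Kdr the most abundant). The globin genes Hba-a1 and Hbb-bs and the T cell gene Cd3e had a count of 0 in all 6 libraries, and of the blood list Ptprc was lower and Alas2 was higher. The part of these cell types in the lower Foxm1 and MYB levels was not tested.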

How the data were processed

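RNA was isolated from 3 TKO and 3 DKO retinae, and libraries were made with a stranded mRNA kit. The deposited values are raw counts per gene symbol. The paper's methods name STAR and HTSeq on GRCm38, and the submitters' processing notes name TopHat2, featureCounts and DESeq2, so which made the table is unsure. The paper's STAR settings allowed multiple alignments per read, and the strand setting is not given in the sources used here. Groups and replicate numbers came from the sample titles, and no label ties retinae to litters or says that a number pairs them.

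Genes with a sum under 10 were removed. Counts were tested with edgeR 4.0.16 in R 4.3.3 (TMM, quasi-likelihood F test, genotype only) and Benjamini-Hochberg adjustment over 16904 genes. Standard errors were taken as the size of the log2 fold change over the square root of F. For normalized counts, each library was scaled to the mean of the TMM effective library sizes, and the base mean of the study's criteria (at least 10) used DESeq2 size factors. Centred levels used a pseudocount of 1 and ratios one of 0.5. Library totals were between 10343907 and 14203098, and for replicates of a group chi-square over its degrees of freedom was between 8.61 and 25.3, above sampling noise. Loci and exon lengths came from GENCODE M21 (GRCm38), which is not the study's annotation and held 22750 of 24062 symbols (94.5%), and promoters from RefSeq. Sgo1 was read under its older symbol Sgol1.

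The 8 genes and all gene and marker lists were chosen with earlier results of these data known, so their counts stand beside the background of all genes, with no test over a list. Named were the 8 genes, the targeted genes, all DREAM partners and regulators, the 5 most abundant G2/M and G1/S genes, the most abundant gene of each marker list, and the 3 genes nearest to each of the 8. Some genes that this rule names are not reported here. Other marker genes were named for their calls after their values were seen. The alternatives were DESeq2 1.42.0, other scalings, filters and thresholds, robust dispersion, a replicate block, each retina left out in turn, and for the ratios another pseudocount and other denominators.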

Additional observations from a re-analysis of the deposited data

How the results depend on the processing

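The 8 genes were refitted under 15 alternatives each, giving 120 log2 fold changes, of which 105 kept their direction and side of the threshold, 14 kept their direction but no longer passed and 1 changed sign. The change of sign was Lin37 with total counts only (-0.036). With that scaling Dyrk1a (-0.015) and Rbl1 (-0.036) also changed sign, 0 DREAM partners were higher, and 2610 genes were lower and 778 higher, against 1556 and 1243 with TMM. With upper quartile scaling 1 DREAM partner was higher. Under the study's criteria 0 DREAM partners were lower and 0 higher. With a single retina left out, log2 fold changes ran from -3.25 to -2.16 for Foxm1, -2.19 to -1.54 for Mybl2, -2.20 to -1.502 for Myb, -0.93 to -0.62 for Lin9 and -0.15 to 0.36 for Rbl1, whose sign changed without TKO replicate 1 or DKO replicate 1. The counts lower ran from 1 to 5 of the 8 genes, 0 to 2 DREAM partners, 5 to 7 regulators, 10 to 29 G1/S genes and 23 to 45 G2/M genes, and 0 to 2 DREAM partners were higher. Over all genes tested in these refits, the counts ran from 404 to 1973 lower and from 214 to 1617 higher. With Lin54, Lin52 and Lin37 in place of Lin9, the differences in ratio were -2.37, -2.86 and -2.78 for Foxm1, -2.68, -3.17 and -3.09 for Mybl1, -1.55, -2.05 and -1.97 for Mybl2, and -1.54, -2.03 and -1.95 for Myb. The causes of these shifts were not tested.

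No label pairs the retinae by replicate number. Correlations of deviations were 0.046, -0.044 and -0.14 for same-numbered retinae and between -0.12 and 0.14 for the other pairs. Such correlations cannot show whether litters or days were shared. With the number as a replicate block, 82 genes were lower and 24 higher, and the log2 fold changes were -2.60 for Foxm1 (adjusted p = 0.0640, edgeR), -2.92 for Mybl1 (0.0577), -1.84 for Mybl2 (0.0640), -1.81 for Myb (0.0599) and -0.79 for Lin9 (0.0939). Under the block 0 of the 8 genes were lower, and 6 were at an unadjusted p under 0.05. Likewise 0 DREAM partners were lower and 0 higher (3 and 2 unadjusted), and 0 regulators (7), 0 G1/S genes (29) and 0 G2/M genes (45) were lower.

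With 3 retinae per group and no record of separate litters, p-values measure the spread between these retinae. Exact permutation tests cannot go below 0.1.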
